A study of Mus musculus with 156 samples.

Results

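Transcripts of cholesterol and fatty acid synthesis were followed in the mouse striatum after single injections of 9 psychotropic drugs. Of 30 genes listed by their known role, 27 had a probe of that name among the 19057 genes named on the arrays. The other members, Acat2, Hmgcs1 and Fdft1, were not analysed here. Each gene was represented by its brightest probe, and its drug response was not used to choose it.

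Striatal RNA from male C57BL/6J mice aged 6 to 10 weeks per the labels was hybridised to 156 Illumina MouseWG-6 arrays, each with RNA pooled from 2 mice. In a first set of 18 chips of 6 arrays, mice received an antidepressant (bupropion, tranylcypromine or mianserin), an antipsychotic (clozapine, risperidone or haloperidol), saline or 1% Tween 80, or were left naive. A second set of 8 chips held the anxiolytics diazepam, buspirone and hydroxyzine with further saline arrays. Doses were 20 mg/kg for each antidepressant, 10 mg/kg for buspirone and hydroxyzine, 5 mg/kg for diazepam, and 3, 1 and 0.5 mg/kg for clozapine, haloperidol and risperidone. Each drug and time, 1, 2, 4 or 8 h after injection, had 3 arrays, and drugs were compared with the same-time vehicle arrays of their own chip set. These were 6 arrays of saline and Tween 80 together in the first set and 3 saline arrays in the second. Diazepam, clozapine, risperidone and haloperidol were given in Tween 80 and the other drugs in saline, so diazepam had no vehicle arrays of its own kind. All drugs of a set shared the same vehicle arrays. Over both sets only 20 drug arrays had a same-time vehicle array on their own chip, so most differences were also between chips. Arrays were separate pools, and the p-values measure the spread between arrays, which includes differences between pools and between chips.

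Cholesterol is built from acetyl-CoA through mevalonate, squalene and lanosterol, and fatty acids from the same precursor through malonyl-CoA. The transcription factors SREBP1 and SREBP2, held back by INSIG proteins when sterols are plentiful, drive most genes of both routes. The brain makes its own cholesterol, mostly in glia, and uses much of it for myelin. In tissue RNA, fewer cells of a type and less RNA per cell cannot be told apart.

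The proximal promoters of the 3 genes called at a single time are shown, as the rule for promoters was to print those of called members. They differ in motifs that SREBP partners are known to bind. Each runs from 250 bases before to 50 bases after the annotated start (RefSeq, GRCm38.p6), and capitals mark CCAAT, bound by NF-Y, and GGGCGG, bound by Sp1, on the printed strand. The genes are Acaca (chr11:84195188-84195487, plus strand), Msmo1 (chr8:64733529-64733828, minus strand) and Elovl6 (chr3:129532136-129532435, plus strand).
Acaca: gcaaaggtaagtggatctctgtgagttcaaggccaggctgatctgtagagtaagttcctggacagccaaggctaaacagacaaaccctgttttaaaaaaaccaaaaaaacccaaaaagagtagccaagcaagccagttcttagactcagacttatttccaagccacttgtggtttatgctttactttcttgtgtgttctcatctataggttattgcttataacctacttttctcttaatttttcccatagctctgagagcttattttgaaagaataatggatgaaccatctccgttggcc
Msmo1: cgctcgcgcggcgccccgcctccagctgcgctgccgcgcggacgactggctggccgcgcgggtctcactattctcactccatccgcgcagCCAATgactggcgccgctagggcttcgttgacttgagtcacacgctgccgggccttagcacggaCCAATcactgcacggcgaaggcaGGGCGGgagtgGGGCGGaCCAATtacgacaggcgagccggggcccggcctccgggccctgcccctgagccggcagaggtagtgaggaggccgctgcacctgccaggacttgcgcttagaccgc
Elovl6: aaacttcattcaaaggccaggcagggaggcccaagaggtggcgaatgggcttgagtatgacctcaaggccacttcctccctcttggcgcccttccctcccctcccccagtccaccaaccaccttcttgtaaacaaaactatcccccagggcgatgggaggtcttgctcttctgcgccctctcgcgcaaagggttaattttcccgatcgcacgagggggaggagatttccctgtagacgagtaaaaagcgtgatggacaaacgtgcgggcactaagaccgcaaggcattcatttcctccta

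The Msmo1 window held 3 CCAAT and 2 GGGCGG, whereas the Acaca and Elovl6 windows held neither motif on either strand. Promoters were in the table for 21 of the 27 members. CCAAT was present in 17 of these, against 37.9% of 27025 promoters searched on both strands, and GGGCGG in 16, against 35.9%. The E-box CACGTG was found in Hsd17b7, Sc5d and Insig1, against 7.24% of all promoters. The sterol elements TCACNCCAC and CACCCCAC, which overlap where N is C, were found in 0 of the 21, against 1.22% and 2.77%. A match describes letters in 1 annotated window per gene and is not a measured site.

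Levels of the members spanned most of the range of the arrays. The brightest probes were those of the fatty acid desaturase Fads1 (mean 14.57 log2 signal over all arrays), the ATP citrate lyase Acly (14.03), which supplies acetyl-CoA, and the stearoyl-CoA desaturase Scd1 (13.14). In the sterol route, Msmo1, a C4-methyl oxidase acting after lanosterol, and Fdps, farnesyl diphosphate synthase, stood highest at 12.1 and 12.01. The dimmest probe was that of Acaca, acetyl-CoA carboxylase, the committed step of fatty acid synthesis. Its mean of 7.83 lay below the median of all probes, 8.03, and at the 17th percentile of genes. Mvk, mevalonate kinase, at 8.05 and Fasn, fatty acid synthase, at 8.23 were close to that median. Probes differ in affinity, so this order is one of probe signals and not of transcript amounts.

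**Figure D1:**
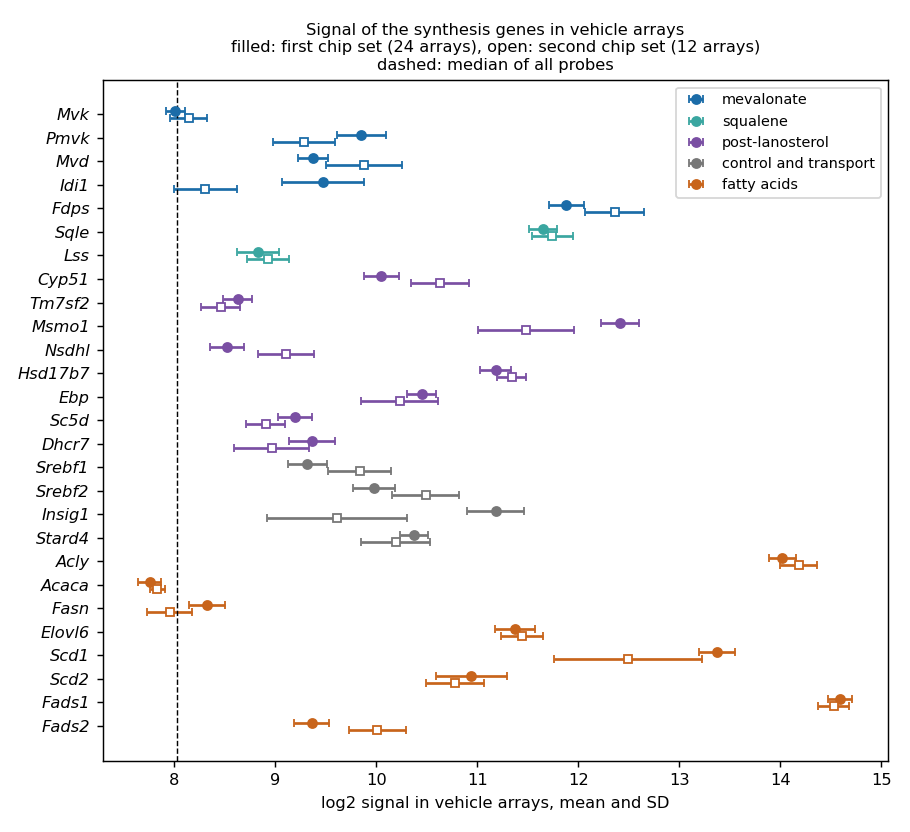
Mean log2 signal in vehicle arrays on the x axis for the 27 genes, with SD bars, coloured by step of the pathway. Filled points are 24 arrays of the first chip set and open points 12 arrays of the second, and Acaca lies below the dashed median of all probes while Fads1 is brightest.

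Few members passed the test for any drug. A gene was called when limma's moderated F test over the 4 times had an adjusted p under 5% false discovery rate across all probes. Mianserin, an antagonist of serotonin, adrenergic and histamine receptors, had 1 call of 27, Acaca, where 4.19% of all genes were called. Risperidone, an antagonist of dopamine and serotonin receptors, had 2, Acaca and the fatty acid elongase Elovl6, where 1.75% of genes were called. Tranylcypromine, an inhibitor of monoamine oxidase, had 0 members called against 2.43% of genes. Clozapine had 0 against 0.0787%, haloperidol 0 against 0.22%, and bupropion 0 against 0%. In the second chip set diazepam had 0 against 0.00525%, buspirone 0 against 0.0105% and hydroxyzine 0 against 0%. In the test over all drugs of a set together, 1 member passed in the first set, Acaca (adjusted p = 0.0031), against 3.75% of genes, and 0 in the second, against 0.0157%.

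At an unadjusted p under 0.05 in limma, mianserin had 6 members (22.2%, against 16.3% of genes), tranylcypromine 8 (29.6% against 13.2%) and risperidone 2 (7.41% against 10.4%). Bupropion had 1 (3.7% against 4.85%), clozapine 1 (3.7% against 4.26%) and haloperidol 2 (7.41% against 7.67%). Diazepam had 11 (40.7% against 16.3% of genes), hydroxyzine 4 (14.8% against 5.08%) and buspirone 1 (3.7% against 3.62%).

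The median change over the 27 members stayed near 0. Across the 36 drug and time comparisons it lay between -0.09 and 0.06 log2 units, and the median of all genes between -0.03 and 0.04. When arrays were scaled by their medians instead, the member medians ran from -0.27 to 0.32 and the gene medians from -0.10 to 0.11, a difference between them of -0.19 to 0.21, so the medians depend on the scaling. In the first chip set the step medians of largest size were 0.23 for the 5 mevalonate enzymes after tranylcypromine at 4 h and -0.26 for Sqle and Lss, the squalene enzymes, after mianserin at 2 h, for which no member of the step was called.

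**Figure D2:**
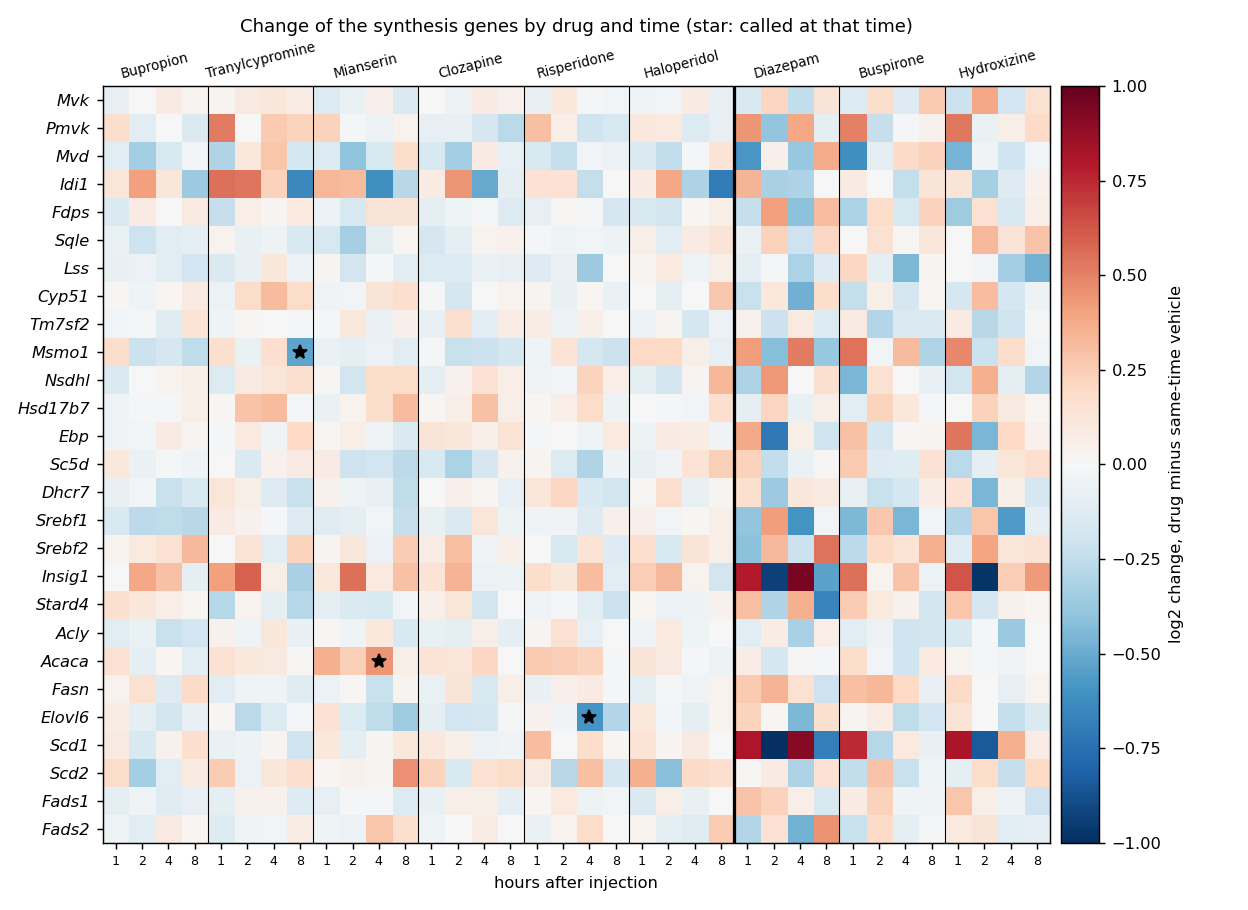
Log2 difference between each drug and its same-time vehicle for the 27 genes (rows) by drug and hours after injection (columns), with red higher and blue lower. Stars mark the 3 values called at a single time, and the thick line separates the chip sets, the second holding the values of largest size for Scd1 and Insig1.

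Acaca was higher after mianserin. At 4 h its log2 signal was 8.07, 8.38 and 8.09 after mianserin, against 7.82, 7.67 and 7.67 in saline and 7.83, 7.64 and 7.80 in Tween 80 arrays. All 3 mianserin arrays lay above all 6 vehicle arrays. The difference was 0.44 log2 units (SE 0.0876, limma adjusted p = 0.00065 at this time and 1.1e-05 over the 4 times). At 1 h the mianserin arrays read 8.03, 7.96 and 8.06 and the vehicle arrays 7.55 to 7.74, again without overlap. The difference was 0.36 at 1 h, 0.24 at 2 h and 0.06 at 8 h. The groups overlapped at 2 and 8 h, and of the single times only 4 h passed the test.

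After risperidone Acaca was called over the 4 times (adjusted p = 0.032) with differences of 0.26 at 1 h, 0.25 at 2 h, 0.22 at 4 h and -0.01 at 8 h. No single time passed the test, the smallest adjusted p being 0.29. At 1 h the risperidone arrays read 7.80, 7.92 and 8.06, all above the vehicle arrays (7.55 to 7.74). Without risperidone replicate 3 at 1 h the difference there was 0.20 and the call over the 4 times was lost (adjusted p = 0.12). It was also lost without risperidone replicate 2 (0.26, adjusted p = 0.064) or Tween 80 replicate 2 (0.24, adjusted p = 0.056) at 1 h. Clozapine gave 0.14, 0.12, 0.21 and 0.00 in order of time, with no call.

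Acaca differed between drugs in limma's F test of 1 drug against another. Mianserin differed from bupropion (adjusted p = 0.0011, higher by 0.42 at 4 h) and from haloperidol (adjusted p = 0.008, higher by 0.46 at 4 h). The 15 drug pairs of the first set gave 4 member calls of 405 (0.967% over all genes), and the 3 pairs of the second set 0 of 81 (0.0105% over all genes). Mianserin and risperidone were not among the called pairs for Acaca. Both differences from vehicle use the same vehicle arrays.

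The Acaca result rests on 1 probe with dim signal. Marker signal at mianserin 4 h differed most for the choroid plexus list (5 of 5 genes measured, 9.69 to 10.72 against 9.26 to 9.99 in vehicle, no gene called), and endothelial markers (6 of 6) were 9.67 to 9.76 against 9.75 to 9.93. The part of either in the Acaca result was not tested. At risperidone 1 h the ranges of the choroid plexus list, 9.11 to 10.69 against 9.37 to 11.64, overlapped.

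Elovl6, which extends palmitate, was lower after risperidone. At 4 h it read 10.83, 10.66 and 10.93, against 11.53, 11.11 and 11.37 in saline and 11.34, 11.50 and 11.55 in Tween 80 arrays. All 3 risperidone arrays lay below all vehicle arrays. The difference was -0.59 (SE 0.141, limma adjusted p = 0.012 at this time and 0.047 over the 4 times), after 0.04 at 1 h and -0.03 at 2 h, and -0.29 followed at 8 h. The call over the 4 times was lost when any 1 of the 3 risperidone arrays at 4 h was left out (-0.60, -0.52 and -0.65 without replicates 1, 2 and 3, adjusted p = 0.15, 0.35 and 0.078). It was also lost without saline replicate 1 (-0.54) or 3 (-0.58) or Tween 80 replicate 2 (-0.58) or 3 (-0.57), with adjusted p from 0.084 to 0.13. Mianserin gave 0.14, -0.14, -0.25 and -0.36 in order of time, with no call. The dimmer second probe of Elovl6 was not called for risperidone (adjusted p = 0.96) and stood at -0.33 at 4 h. The endothelial list was also lower at risperidone 4 h (6 of 6 measured, 9.53 to 9.59 against 9.75 to 9.93, 1 gene called lower), as was the microglial list (7 of 7, 10.31 to 10.41 against 10.41 to 10.59). Their part in the Elovl6 result was not tested.

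Msmo1 was lower 8 h after tranylcypromine, reading 11.68, 12.02 and 12.15 against 12.51, 12.46 and 12.48 in saline and 12.45, 12.52 and 12.45 in Tween 80 arrays. All 3 drug arrays lay below the narrow band of the vehicle arrays. The difference was -0.53 (SE 0.143, limma adjusted p = 0.032 at this time), but over the 4 times Msmo1 was not called (adjusted p = 0.15), with 0.16, -0.07 and 0.17 at the earlier times. The call at 8 h was lost without tranylcypromine replicate 1 (-0.39, adjusted p = 0.33) or 2 (-0.56, adjusted p = 0.094). It was also lost without saline replicate 1 (-0.52) or 3 (-0.53) or Tween 80 replicate 2 (-0.52) or 3 (-0.53), with adjusted p from 0.05 to 0.068. At the same time the oligodendrocyte list (9 of 10 markers measured) was lower, at 12.59, 12.46 and 12.81 in the 3 tranylcypromine arrays against 12.84 to 12.94 in vehicle arrays. The microglial list (7 of 7) was 9.98 to 10.3 against 10.42 to 10.66. The mean of the astrocyte markers (8 of 8) did not separate, at 12.12 to 12.46 against 12.16 to 12.40. In the oligodendrocyte and microglial lists 1 gene each was called lower, and in the astrocyte and striatal neuron lists 1 gene each higher. Within groups of the first set, with the chip mean removed, Msmo1 had a Pearson's r of -0.14 with the oligodendrocyte list. With the microglial list it was -0.2 and with the astrocyte list 0.61. The part of these cell types in the Msmo1 value was not tested.

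**Figure D3:**
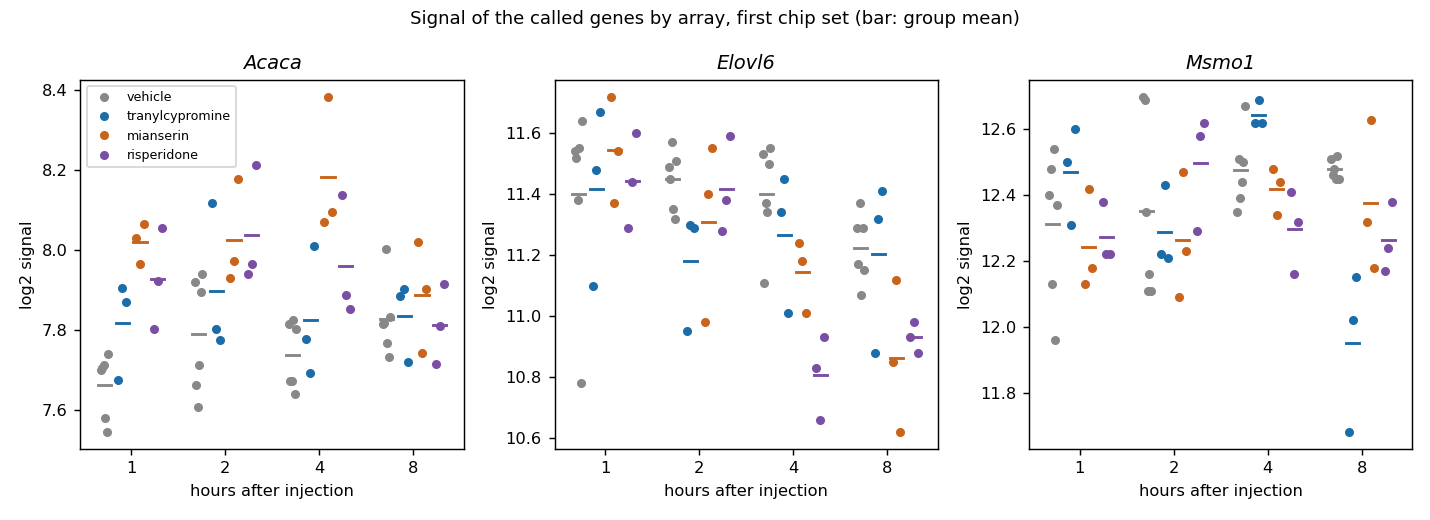
Log2 signal by array for Acaca, Elovl6 and Msmo1 against hours after injection in the first chip set, with 6 vehicle and 3 drug arrays a time and bars at the group means. The mianserin arrays are above vehicle for Acaca at 1 and 4 h, the risperidone arrays below vehicle for Elovl6 at 4 h, and the tranylcypromine arrays below vehicle for Msmo1 at 8 h.

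These were 3 calls among 648 member values at single times in the first set, where 0.43% of all gene values were called. In the second set 0 of 324 were called, against 0.00131% of gene values. At an unadjusted p under 0.05 in limma there were 46 in the first (7.1%, against 7.05% of gene values) and 35 in the other (10.8% against 6.45%).

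Of the 5 mevalonate enzymes, Pmvk and Mvd were among the members nearest the threshold, Pmvk after tranylcypromine and Mvd after mianserin. Pmvk, phosphomevalonate kinase, read 10.0, 10.34 and 10.32 at 1 h after tranylcypromine and 9.24 to 10.07 in vehicle arrays, which overlapped, a difference of 0.52 (adjusted p = 0.08 over the 4 times). Mvd, mevalonate diphosphate decarboxylase, read 8.81, 9.03 and 9.29 at 2 h after mianserin and 9.37 to 9.57 in vehicle arrays, which did not overlap, a difference of -0.40 (adjusted p = 0.12). Direct tests between drugs called both genes. Mvd differed between tranylcypromine and mianserin (adjusted p = 0.0045, 0.51 higher after tranylcypromine at 2 h), and Pmvk between tranylcypromine and clozapine (adjusted p = 0.0085, 0.60 higher after tranylcypromine at 1 h).

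Insig1, the sterol-sensitive anchor that holds SREBP in the endoplasmic reticulum, was the member nearest the threshold. It read 11.87, 11.45 and 11.50 at 2 h after tranylcypromine, above the vehicle range of 10.48 to 11.24, a difference of 0.59 (adjusted p = 0.061 over the 4 times). The differences were 0.41 at 1 h, 0.06 at 4 h and -0.32 at 8 h. After mianserin the 2 h difference was 0.55 (adjusted p = 0.19). Of the spread of Insig1 within groups, 74.2% lay between chips, and no 2 h vehicle array shared a chip with these 2 h drug arrays. With chip as a block neither 2 h difference was larger than 0.5 in size. The 3 dimmer probes of Insig1 were not called for either drug.

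Among drugs with 0 calls, the members with the largest differences were often the same few genes. Idi1, isopentenyl diphosphate isomerase, led for bupropion (0.41 at 2 h), clozapine (-0.51 at 4 h), haloperidol (-0.70 at 8 h) and tranylcypromine (-0.64 at 8 h). The second in size were Insig1 for bupropion (0.39), Mvd for clozapine (-0.34), Scd2 for haloperidol (-0.42) and Insig1 for tranylcypromine (0.59). In the second set the leaders were Scd1 and Insig1 for diazepam (-1.0 at 2 h and 0.95 at 4 h) and hydroxyzine (-0.84 and -0.98 at 2 h), and Scd1 and Mvd for buspirone (0.74 and -0.61 at 1 h).

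The remaining members are given by the range of the differences of their brightest probe over the 24 drug and time comparisons of the first set, none of which was called. In the early steps Mvk stayed between -0.14 and 0.11 and Fdps between -0.23 and 0.13. The dimmer second probe of Fdps, however, was called for risperidone over the 4 times (adjusted p = 0.027, -0.32 at 1 h and -0.32 at 2 h), the 1 call among 17 other probes of members, so the probes of Fdps disagree. Squalene epoxidase, Sqle, reached -0.33 at 2 h after mianserin, where the groups did not overlap, and lanosterol synthase, Lss, reached -0.36 at 4 h after risperidone, where they did. The 2 values compare with residual SDs between arrays of 0.157 for Sqle and 0.225 for Lss.

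Of the enzymes after lanosterol, the demethylase Cyp51 reached 0.32 at 4 h after tranylcypromine, without overlap, and Nsdhl, a sterol dehydrogenase, 0.33 at 8 h after haloperidol, with overlap. Sc5d, the sterol C5-desaturase, ranged from -0.32 at 2 h after clozapine to 0.24 at 8 h after haloperidol. Tm7sf2, Ebp and Dhcr7 stayed between -0.25 and 0.20. Of the control and transport genes, Srebf2 reached 0.33 at 8 h after bupropion, and Stard4, a carrier of cholesterol between membranes, -0.29 at 8 h after tranylcypromine, without overlap and at -0.29 also with chip as a block.

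Among the fatty acid genes, Fads1 stayed between -0.14 and 0.10 and Acly between -0.23 and 0.15. Fasn ranged from -0.22 to 0.19, Scd1 from -0.20 to 0.31 and Fads2 from -0.13 to 0.28. Scd2, a second stearoyl-CoA desaturase, had the widest range among them, from -0.42 at 2 h after haloperidol to 0.46 at 8 h after mianserin, and these became 0.20 and 0.04 with the chip block.

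Much of the spread of several of these genes lay between chips. In an F test on chip terms added to the groups, which was chosen after the data were seen, 22 of 27 members were called in the first set, against 55.3% of genes, and 15 of 27 in the second, against 39% of genes. The share of the spread within groups that lay between chips had a median of 48.8% over members and 40.3% over genes in the first set, and 53.2% and 37.3% in the second. Idi1 had 85% in the first set (adjusted p = 1.2e-18), and its chip means ran from 8.64 to 10.24. Insig1 had 74.2% and Hsd17b7, a keto-reductase of the sterol route, 73.9%. Acaca had 27.7% and was not called (adjusted p = 0.33).

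In the second set the chip share reached 94.4% for Insig1 (adjusted p = 2.8e-19) and 87.9% for Scd1 (adjusted p = 1e-14). All 6 arrays of 1 chip, the second of the set, read 10.92 to 11.17 for Insig1, and all 6 of the third chip 8.13 to 8.71. The other chips read 9.14 to 10.16, so the chips did not overlap with them although each held both drug and saline arrays. For Scd1 the third chip read 10.82 to 11.49 and the others 12.15 to 13.53. Ebp, the sterol isomerase, had 87.6% of its spread between chips.

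**Figure D4:**
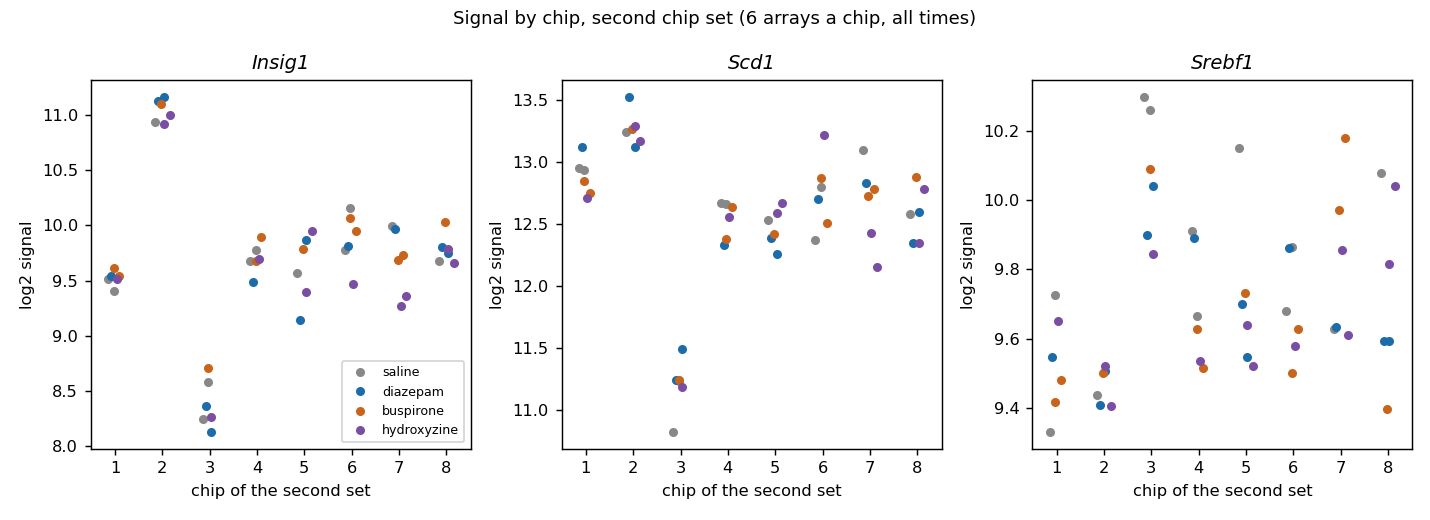
Log2 signal of Insig1, Scd1 and Srebf1 by chip of the second set, 6 arrays a chip with all times together, coloured by saline and drug. Insig1 is high on chip 2 and low on chip 3 in every array of those chips, Scd1 is low on chip 3, and Srebf1 spreads more widely within chips.

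With chip as a block, fewer member differences were large. In the first set 11 of 648 were larger than 0.5 in size and 1 of 648 with the block, and in the second set 26 of 324 and 2 of 324. The sign differed between the fits for 168 of 648 values in the first set and 68 of 324 in the second, 0 of them called at that time. The Idi1 difference for haloperidol at 8 h went from -0.70 to 0.04. The Scd1 differences for diazepam, 0.80, -1.0, 0.91 and -0.69 in order of time (SE 0.427), became 0.37, -0.35, 0.06 and 0.07 with the block. At diazepam 2 h the low value of 11.24 came from the third chip, and the other 2 arrays read 12.70 and 12.33 against 12.95 to 13.24 in saline.

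No chip held both a drug array and a same-time vehicle array for Acaca after mianserin at 4 h or risperidone at 1 h. The same held for Elovl6 after risperidone at 4 h and Msmo1 after tranylcypromine at 8 h. With the block these differences were reached through arrays of other drugs and times. The Acaca difference for mianserin at 4 h was 0.52 with the chip block (adjusted p = 5.7e-07 over the 4 times), and Acaca after risperidone was still called (adjusted p = 0.0091). Elovl6 after risperidone was -0.46 at 4 h and no longer called (adjusted p = 0.17), and Msmo1 after tranylcypromine was -0.43 at 8 h and no longer called (adjusted p = 0.18 at that time). Pmvk after tranylcypromine was called with the block (adjusted p = 0.039). So was Hsd17b7 after mianserin (adjusted p = 0.0044), at 0.46 at 8 h where the fit without the block gave 0.31. The Hsd17b7 arrays read 11.47, 11.46 and 11.59 there, above all vehicle arrays (11.01 to 11.41). Without the block the dimmer second probe of Hsd17b7 stood at 0.06 at 8 h after mianserin (limma adjusted p = 0.88 over the 4 times).

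Srebf1, which encodes SREBP1, was lower than saline at 4 h in all 3 drugs of the second set, without a call. Saline arrays read 10.15, 10.08 and 10.26, diazepam 9.55, 9.63 and 9.51, and hydroxyzine 9.54, 9.65 and 9.61, without overlap, whereas 1 buspirone array at 10.09 overlapped. The differences were -0.60, -0.56 and -0.46 for diazepam, hydroxyzine and buspirone. They were -0.45, -0.46 and -0.45 with the chip block, and the smallest adjusted p of these was 0.71. At 2 h the differences had the opposite sign, 0.42, 0.28 and 0.27 for diazepam, hydroxyzine and buspirone, also without a call, and the diazepam arrays (9.86 to 9.90) did not overlap with saline (9.33 to 9.63). All 3 drugs share the same saline arrays, and saline itself read higher at 4 h than at 2 h by group mean (10.16 against 9.46). These values are of the brightest probe. The dimmer second probe of Srebf1 stood at -0.08, 0.20 and 0.07 at 4 h for diazepam, hydroxyzine and buspirone, so the probes disagree there.

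Neither injection itself nor the hours after a vehicle injection gave a member call. Vehicle against naive arrays called 0 of 27 members against 0% of genes, with 0 members and 586 genes at an unadjusted p under 0.05 in limma. Time in vehicle arrays called 0 of 27 in the first set against 0.771% of genes, and 0 in the second against 0.021%, with 2 members (7.41%, against 11.2% of genes) and 7 members (25.9% against 10%) at an unadjusted p under 0.05. Idi1 in first-set vehicle arrays was higher at 4 and 8 h than at 1 h by 0.50 and 0.49 (adjusted p = 0.36).

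Outside the 27 members, 33 of 40 further listed lipid genes were measured. Over the 4 times 1 of the 33 was called for tranylcypromine (2.43% of all genes), 2 for mianserin (4.19%) and 1 for risperidone (1.75%). Ch25h, cholesterol 25-hydroxylase, rose after tranylcypromine (adjusted p = 1.9e-06, 0.78 at 8 h, SE 0.16). At 8 h its drug arrays read 8.39 to 9.72 and the vehicle arrays 7.92 to 8.45, which overlapped. Acacb, the mitochondrial acetyl-CoA carboxylase, was called for risperidone (adjusted p = 0.0075, 0.61 at 4 h, SE 0.12) and mianserin (adjusted p = 0.042, 0.45 at 8 h). Lpin1, a phosphatidate phosphatase, was called for mianserin (adjusted p = 0.011, 0.42 at 8 h). No other of the 33 passed the test for a drug over the 4 times. Both carboxylase genes, Acaca and Acacb, were thus called for mianserin and for risperidone. With each drug the largest difference came later for Acacb than for Acaca, but this order was not tested. For Acaca after risperidone no single time passed the test.

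Within groups, several members varied with the astrocyte markers. Deviations from the group mean, with the chip mean removed, were set against the mean of 8 astrocyte markers over 108 arrays of the first set, where both values of a point come from the same array. Pearson's r was 0.67 for Dhcr7, the last reductase of cholesterol synthesis (Spearman's rho 0.61), 0.61 for Msmo1 (rho 0.65), 0.58 for Fads1 and 0.55 for Elovl6. It was -0.63 for Srebf2 (rho -0.65). Without the 2 most extreme arrays these were 0.64, 0.60, 0.56, 0.53 and -0.60. Of the 27 members 5 had r above 0.5, where 4.24% of genes did, and 1 below -0.5, where 3.94% did. Over the 48 arrays of the second set r was 0.69 for Elovl6 but 0.22 for Dhcr7, -0.15 for Msmo1 and -0.12 for Srebf2. Of the marker lists compared with the members in the first set, the astrocyte list had the values of largest size. With the other lists r ran from -0.47 (Pmvk with striatal neuron markers) to 0.41 (Fasn with choroid plexus markers).

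**Figure D5:**
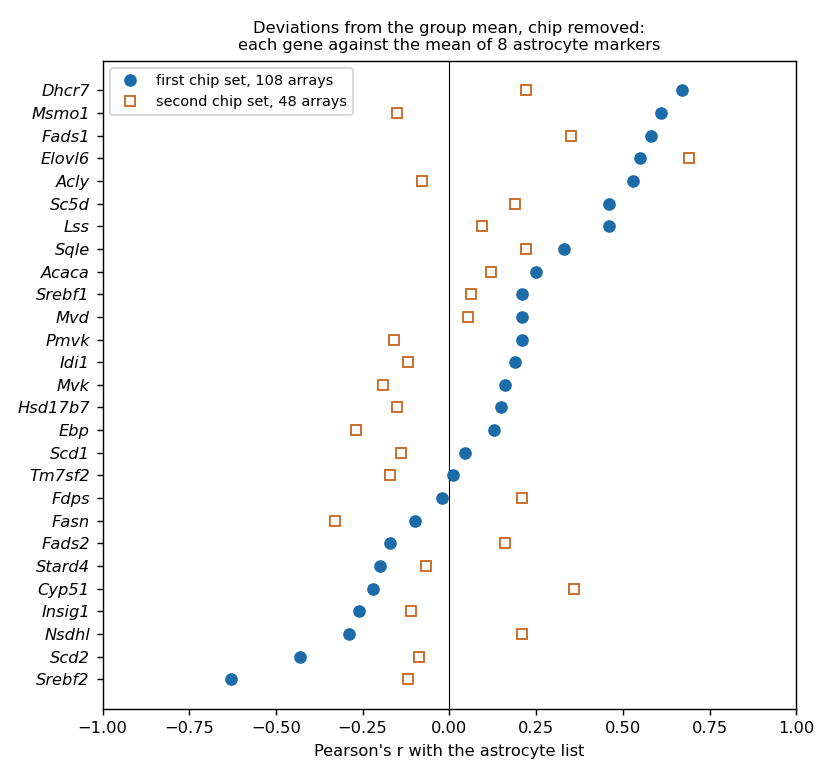
Pearson's r (x axis) between each gene and the mean of 8 astrocyte markers, over deviations from group means with the chip mean removed. Filled points are 108 arrays of the first set and open squares 48 of the second, and Dhcr7 and Msmo1 are high and Srebf2 low only in the filled points.

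Between members, Acly with Elovl6 (r 0.66, rho 0.63) and Acly with Fads1 (r 0.66, rho 0.57) varied together most in the first set, and Msmo1 with Srebf2 most in opposite directions (r -0.64, rho -0.65). In the second set the values were -0.09, 0.16 and -0.54. Over all 351 member pairs the median r was 0.04 for the first set and -0.01 for the second.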

How the data were processed

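Log2 signal of 45281 probes was deposited in 2 tables by the authors, 1 without normalization, from BeadStudio, and 1 after their quantile normalization. Whether background was subtracted in the former is not given in the sources used here. Quantile normalization of the former across the 156 arrays, and all tests, used limma 3.58.1 under R 4.3.3, and 2 probes that lacked a value were dropped. Groups of drug, time and chip set came from the labels. Each chip set was fitted apart with an intensity trend, because the median residual SD was 0.142 in the first and 0.189 in the second, and p-values were adjusted by Benjamini-Hochberg over 45279 probes. Detection p-values were not used. Precision is limited by the number of arrays.

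The members and gene lists were chosen with earlier results of these data known. By the rule for named genes, array values are given for members called, and the size of the change for the 2 members with the largest change of a drug with no call. Array values of Pmvk, Mvd, Insig1, Hsd17b7, Scd1 and Srebf1 were added after their values were seen. Genes came from the platform annotation (34883 probes with 1 symbol, 18 with several, 10378 with none). Replicate numbers did not pair arrays: deviations of same-numbered arrays of a time had a mean correlation of -0.02 (first set) and -0.03 (second set). Arrays of a chip correlated at 0.23 and 0.24. Tests were checked on simulated data with independent noise for each array and no chip effect, so that check does not cover differences between chips. Alternatives covered scaling, background, probe filter, chip or replicate blocks, vehicles, spread, tests and left-out arrays.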

Additional observations from a re-analysis of the deposited data

Results flagged for a closer look

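Direct tests between 2 drugs of the first chip set picked out 4 of 405 member values, where 0.967% of all gene values were called. In limma's F test over the 4 times, Acaca differed between bupropion and mianserin (adjusted p = 0.0011) and between mianserin and haloperidol (adjusted p = 0.008). Mvd differed between tranylcypromine and mianserin (adjusted p = 0.0045), and Pmvk between tranylcypromine and clozapine (adjusted p = 0.0085). Mvd and Pmvk were not called against vehicle for any of these drugs. Of the 4 vehicle groups of 6 arrays examined for a single array far from the others, 0 held one for the genes called.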

How the results depend on the processing

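The differences of the 4 called pairs of gene and drug kept their direction in every alternative run. For risperidone the count of members called went from 2 to 0 with median scaling and with Tween 80 as the only vehicle, and to 1 with probes brighter than the median (Elovl6), with 1 spread for both chip sets (Elovl6) and with chip as a fixed block (Acaca). Leaving out 1 replicate gave 0 to 1 for risperidone, with 0 whenever 1 of its own replicates was left out, 0 to 1 for tranylcypromine and 1 to 2 for mianserin. For tranylcypromine the count was 2 with brighter probes (Pmvk and Insig1) and 1 with chip as a fixed or random block (Pmvk). For mianserin it was 0 with brighter probes, where Acaca was left out, and 2 with chip as a fixed block. The count over all drugs of the first set was 0 with brighter probes and 3 with the chip block (5.72% of genes). With 1 spread for both chip sets diazepam had 11 of 27 members called (18.6% of genes), and the second set 5 over all drugs (3060 of 19057 genes) and 2 at single times (0.632% of gene values). The methods' two-way test, which takes the arrays of both sets together and cannot be split by set, gave 1 member (Acaca, 3.67% of genes), and the methods' t-test 0 single-time calls in the first set after adjustment, with 47 of 648 before it.

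With the replicate number as a block, the counts were 2 for risperidone and 1 for mianserin and 0 for the other drugs of the first set, as without pairing. Acaca after mianserin at 4 h stayed called in 27 of 27 alternatives (0.34 to 0.81). Acaca after risperidone lost its call in 13 of 27 (adjusted p up to 0.33), Elovl6 after risperidone in 17 of 28 (up to 0.57) and Msmo1 after tranylcypromine in 17 of 28 (up to 0.34). With chip as a fixed block 168 of 648 member values of the first set and 68 of 324 of the second had the other sign, 0 of them called. In alternatives added after seeing the data, leaving out the tranylcypromine 8 h array with the lowest oligodendrocyte markers gave -0.56 for Msmo1 (adjusted p = 0.094), and leaving out the 4 arrays least like their groups, all on 1 chip, kept 0 calls in the second set. The signal of Acaca lies near the dim end of the probes, where background limits the differences that arrays can show.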
